A study of Mus musculus with 6 samples.

Results

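Matrix metalloproteinases (MMPs) and their tissue inhibitors (TIMPs) were followed in RNA-seq of cultured mouse microglia, as 7 enzymes (Mmp2, Mmp8, Mmp9, Mmp12, Mmp13, Mmp14 and Mmp19) and 3 inhibitors (Timp1, Timp2 and Timp3). These 10 genes were taken by symbol from the 41079 genes in the deposited tables, and all 10 passed the filter on low counts that left 14618 genes for testing. Microglia came from the brains of C57Bl/6N pups aged 1 to 3 days. They were grown in mixed glial flasks coated with poly-L-ornithine, fed with 20% L-929 conditioned medium and harvested by shaking, in both groups. Per the study's methods each flask pooled cells from several brains. Pups of both sexes were used, and the sexes in each flask are not given. The control group (n = 3 libraries) received no cytokines, and the stimulated group (n = 3) received human TGFbeta, human IL34 and CX3CL1, each at 100 ng/mL. The labels name only these cytokines. The study's methods add cholesterol, insulin-transferrin-selenium and a collagen IV coating for the stimulated cultures, and serum-free DMEM/F12 for both groups, so the agents of the mixture cannot be told apart here. The legend of the experiment calls the libraries biological replicates without naming litters or cultures, so the p-values measure the spread between these samples. Total counts were between 20628148 and 27261839 per library.

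MMPs are zinc-dependent endopeptidases that are made as inactive precursors and cleave collagens, elastin, laminins and other matrix proteins as well as many secreted and surface proteins. TIMPs bind the active site of MMPs and block it, so the balance of both sets how much matrix is cut. In the brain, microglia and macrophages are a known source of several MMPs, which are studied for their action on the basement membranes of vessels and on the matrix around neurons. The values here are RNA levels, and neither protein nor enzyme activity was measured. In bulk RNA, fewer cells of a type and less RNA per cell cannot be told apart.

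Under stimulation 4 of the 7 MMPs fell, among them the 3 with the most RNA per length in control, and 2 of the 3 TIMPs rose. Mmp9 fell 24.2-fold, Mmp13 7.84-fold, Mmp12 5.52-fold and Mmp14 1.74-fold, while Timp2 rose 2.11-fold, Timp1 2.91-fold, Mmp2 1.98-fold and Mmp8 2.97-fold. Mmp19 and Timp3 did not pass the test. Of the 10 genes, 8 were thus called at an adjusted p under 0.05 (4 lower, 4 higher; edgeR quasi-likelihood test, Benjamini-Hochberg), against 29.8% of all genes tested (15.2% lower and 14.7% higher). The balance over all genes depends on the scaling, with 2218 lower and 2142 higher here, 3168 and 1513 by library size alone, and 3267 and 1472 by limma on log2(FPKM + 1), while the 10 genes gave 4 and 4 in each. The same 8 genes had no overlap of CPM (counts scaled to the library's TMM-adjusted total) between the groups, against 43.9% of all genes. The median log2 fold change of the 10 genes was 0.36, and that of all genes tested was 0.0079. The 10 genes were chosen with earlier results of these data known, so their share of calls cannot stand for the family. Among 8 other MMP and TIMP genes tested, 1 was lower and 1 higher.

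The 3 genes of the collagenase and elastase type (Mmp8, Mmp12 and Mmp13) lie in 1 cluster of 10 MMP genes that spans 427.1 kb of chromosome 9 (GRCm39, GENCODE M39). Mmp13 is at chr9:7272514-7283331 and Mmp12 at chr9:7344381-7369499, with 61.0 kb between them, and Mmp8 is at chr9:7558457-7568487, 285.9 kb from the start of Mmp13. All 3 are on the plus strand. The start regions of these neighbours are shown because Mmp12 and Mmp13 fell together while Mmp8 rose, a choice made after the values were seen. They are RefSeq promoter windows (table build GRCm38.p6) of 250 bases before and 50 bases after each start site, found by exact match once each in GRCm39, 5′ to 3′ on the plus strand. Capitals mark TGANTCA, the binding motif of AP-1 (Fos and Jun dimers), which reads the same on both strands.
Mmp13, chr9:7272264-7272563, plus strand: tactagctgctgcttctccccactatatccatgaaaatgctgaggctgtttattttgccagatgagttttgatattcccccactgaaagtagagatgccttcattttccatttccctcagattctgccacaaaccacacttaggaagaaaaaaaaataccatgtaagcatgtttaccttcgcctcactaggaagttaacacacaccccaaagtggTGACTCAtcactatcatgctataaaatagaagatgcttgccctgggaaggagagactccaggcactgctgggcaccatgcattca
Mmp12, upstream start, chr9:7344147-7344446, plus strand: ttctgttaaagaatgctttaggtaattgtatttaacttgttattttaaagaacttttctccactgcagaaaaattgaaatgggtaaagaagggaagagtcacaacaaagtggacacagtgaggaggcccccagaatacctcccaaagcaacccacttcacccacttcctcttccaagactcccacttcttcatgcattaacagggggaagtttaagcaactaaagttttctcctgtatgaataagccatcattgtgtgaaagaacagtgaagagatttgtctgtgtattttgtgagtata
Mmp12, downstream start, chr9:7347124-7347423, plus strand: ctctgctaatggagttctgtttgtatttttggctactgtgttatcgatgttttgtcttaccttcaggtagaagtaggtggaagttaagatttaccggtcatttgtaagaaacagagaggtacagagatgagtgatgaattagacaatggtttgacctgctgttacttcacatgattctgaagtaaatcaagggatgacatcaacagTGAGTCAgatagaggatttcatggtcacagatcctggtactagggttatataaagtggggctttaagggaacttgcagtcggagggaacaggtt
Mmp8, chr9:7558180-7558479, plus strand: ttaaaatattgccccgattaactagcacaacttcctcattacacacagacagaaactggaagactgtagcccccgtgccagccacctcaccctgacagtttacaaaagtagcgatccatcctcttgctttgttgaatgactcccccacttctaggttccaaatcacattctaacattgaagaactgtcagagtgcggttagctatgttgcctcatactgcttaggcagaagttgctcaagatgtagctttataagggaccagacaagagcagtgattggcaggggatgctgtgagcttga

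The motif begins 35 bases before the start of Mmp13 and 44 bases before the downstream start of Mmp12, as TGACTCA and TGAGTCA. It is absent from the windows of the upstream Mmp12 start and of Mmp8. Among all 32851 windows in the table, 7.81% hold TGANTCA. The table holds windows for 7 of the 10 genes (8 windows), and those of Mmp14, Timp1, Timp2 and Timp3 hold no match. Of these, Mmp14 fell, Timp1 and Timp2 rose, and Timp3 was not called. Mmp2, Mmp9 and Mmp19 had no window. Over the whole chromosome 9 cluster, 8 of 12 windows from 10 genes hold the motif, and over the 12 MMP and TIMP genes elsewhere 0 of 13 windows do. Mmp3, tested and not called, holds TGAGTCA 46 bases before its start, while Mmp27, also not called, holds no match. The ETS motif AGGAAG, searched on both strands, lies 109 and 62 bases before the start of Mmp13, 87 bases before the upstream start of Mmp12 and 220 bases before that of Mmp8, and it is absent from the downstream Mmp12 window. It also occurs in the windows of Mmp14 and Timp3 (1 match each) and Timp1 (3 matches), not in that of Timp2, and in 35.4% of all windows. The Smad-binding letters CAGACA, also on both strands, are found 2 times in the Mmp8 window, 205 bases before and 9 bases after the start, and 1 time, 27 bases after the start, in the upstream Mmp12 window. They are found in 21.0% of all windows. These matches describe letters and are not binding sites, and their part in the changes was not tested.

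**Figure D1:**
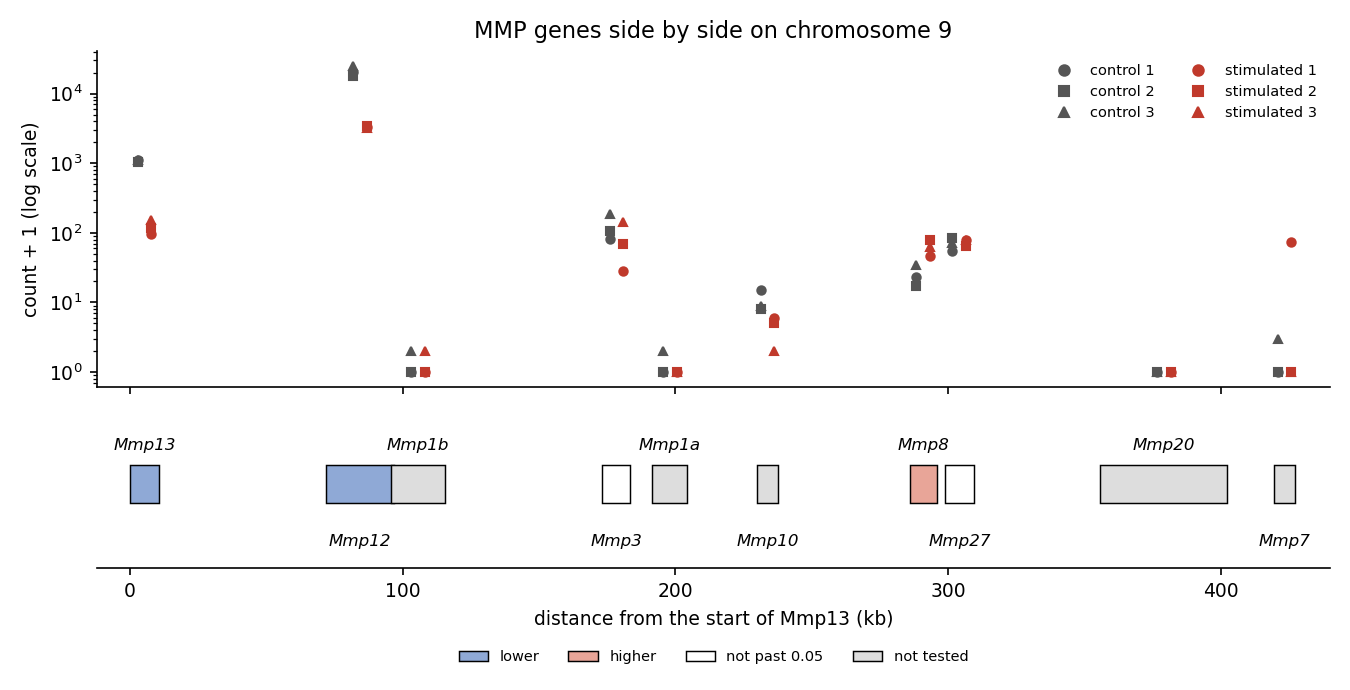
The 10 MMP genes of the chromosome 9 cluster, by distance from the start of Mmp13 in kb. Points give each library's count plus 1 on a log axis (grey, control; red, stimulated; the symbol marks the replicate), and boxes give gene spans by test result. Mmp12 is by far the highest, Mmp12 and Mmp13 are lower in the stimulated libraries, Mmp8 is higher, and Mmp7 has counts in stimulated replicate 1 almost alone.

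Of the other cluster genes, Mmp3 (stromelysin-1) and Mmp27 passed the count filter and neither passed the test. Mmp3 had 80, 105 and 188 counts in control against 27, 69 and 143 in stimulated libraries, a log2 fold change of -0.41 (SE 0.48, edgeR adjusted p = 0.59). Without stimulated replicate 3 it was -1.21 (adjusted p = 0.061). Mmp27 had 53, 84 and 70 counts in control against 77, 63 and 77 in stimulated libraries (0.27, SE 0.23, adjusted p = 0.43). Mmp10 fell below the filter, with 14, 7 and 8 counts in control and 5, 4 and 1 in stimulated libraries. Mmp1a, Mmp1b and Mmp20 had at most 1 count in any library. Mmp7 (matrilysin) had 72 counts in stimulated replicate 1 and at most 2 in any other library.

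Mmp12, the macrophage metalloelastase, was the most abundant MMP in both groups. Its level was 887, 730 and 913 CPM in control replicates 1 to 3 and 157, 146 and 155 CPM in stimulated replicates 1 to 3. The stimulated libraries lay close together and far below the lowest control. The group means of 843 ± 99.2 and 153 ± 5.84 CPM (SD, n = 3) differed by a log2 fold change of -2.46 (SE 0.11, 95% interval -2.71 to -2.22, edgeR adjusted p = 2.6e-07). Mmp12 shares 157 exonic bases with Mmp1b on the opposite strand, and Mmp1b had 2 counts over all 6 libraries.

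Mmp13 and Mmp8 both cleave fibrillar collagens, and they moved in opposite directions. Mmp13 (collagenase-3) was at 49.2, 42.0 and 41.4 CPM in control and at 4.50, 5.02 and 7.40 CPM in stimulated libraries. Its groups were well apart, at 44.2 ± 4.35 against 5.64 ± 1.55 CPM (SD, n = 3), a log2 fold change of -2.97 (SE 0.17, 95% interval -3.36 to -2.58, edgeR adjusted p = 1.3e-06). Mmp8, known as the neutrophil collagenase, was scarce throughout, with 22, 16 and 33 counts in control and 46, 78 and 61 in stimulated libraries. These are 0.96, 0.65 and 1.21 CPM against 2.18, 3.32 and 2.95 CPM, without overlap. Its log2 fold change was 1.57 (SE 0.30, 95% interval 0.89 to 2.25, edgeR adjusted p = 0.0031), and its wide interval goes with these few counts. Mmp8 lies inside the long non-coding gene Gm31751 of the opposite strand, which had 0 counts. Of 12 neutrophil markers, S100a9, Ngp, Elane, Mpo, Ly6g and Cd177 were at 0 counts in all 6 libraries. The summed level of the 12 was 199.9 to 224 CPM in control and 200.1 to 306.5 CPM in stimulated libraries. Csf3r made up most of it and hardly changed (log2 fold change -0.02, SE 0.09). The highest sum, in stimulated replicate 1, held 72.6 CPM of Ltf (1534 counts), which had at most 3 counts in any other library. Of the 2 list genes tested, 1 (S100a8) was higher in stimulated libraries. The part of the neutrophil markers in the Mmp8 result was not tested.

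**Figure D2:**
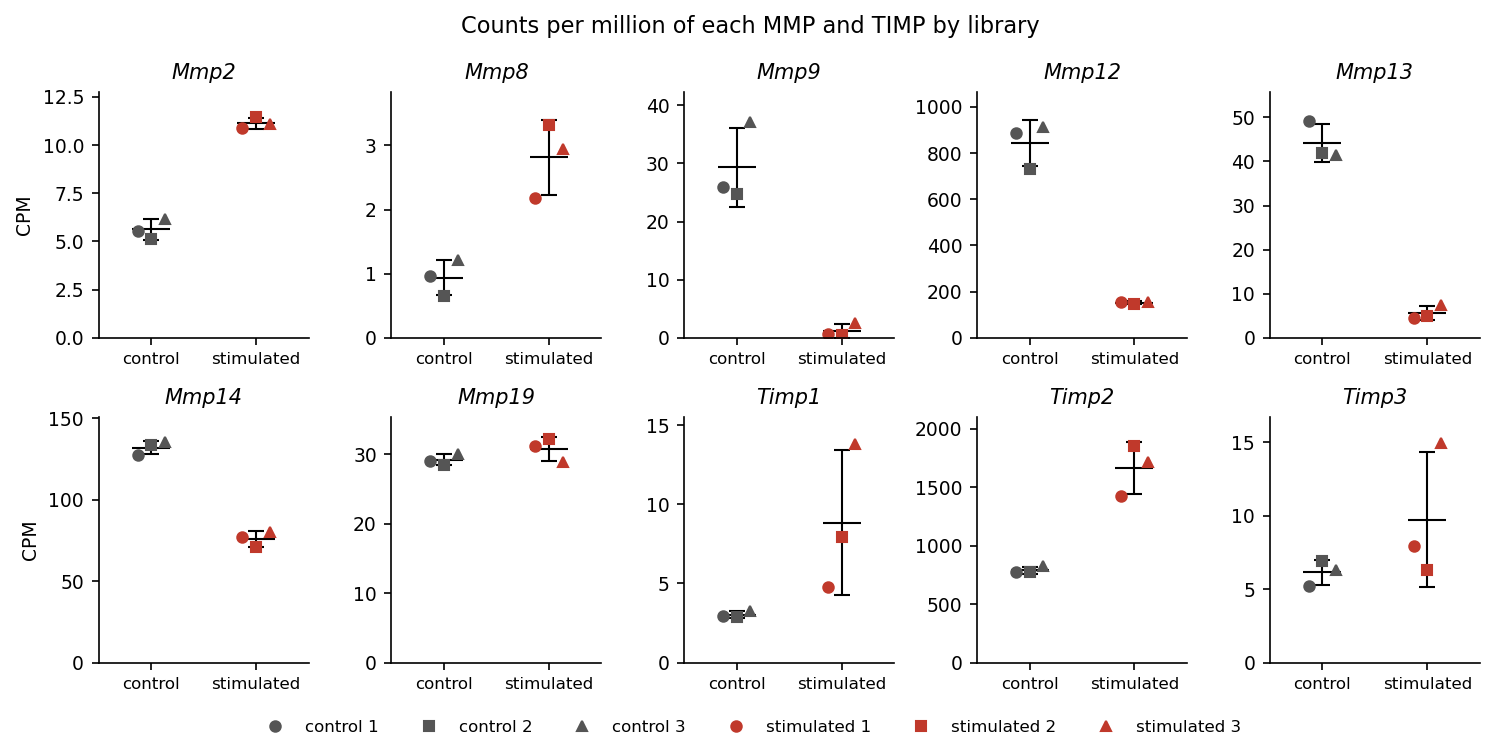
Level of each of the 10 genes in CPM (linear axis from 0) by library; grey is control and red is stimulated, the symbol marks the replicate, and the bar and whiskers are mean and SD (n = 3). Mmp9, Mmp12, Mmp13 and Mmp14 are lower in all 3 stimulated libraries, Mmp2, Mmp8, Timp1 and Timp2 are higher in all 3, and the groups overlap in Mmp19 and Timp3.

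The gelatinases Mmp2 and Mmp9, which cleave denatured collagen and collagen IV, also moved apart. Mmp9 (chr2:164780439-164797771, plus strand) was at 26.0, 24.7 and 37.2 CPM in control and at 0.66, 0.43 and 2.61 CPM in stimulated libraries. As counts these were 595, 606 and 1015 against 14, 10 and 54. Every stimulated library was far below every control, but stimulated replicate 3 held several times more than its 2 companions. The log2 fold change was -4.60 (SE 0.43, 95% interval -5.57 to -3.63, edgeR adjusted p = 3.1e-05), and it was -5.75 without stimulated replicate 3. It was the largest change among the 10 genes.

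Mmp2 (chr8:93553902-93580049, plus strand), made by many stromal cells and activated at the cell surface, was at 5.55, 5.14 and 6.19 CPM in control and at 10.9, 11.5 and 11.1 CPM in stimulated libraries. The stimulated values hardly varied, and the lowest of them was above the highest control. The log2 fold change was 0.98 (SE 0.13, 95% interval 0.70 to 1.27, edgeR adjusted p = 0.00027). In control Mmp9 was above Mmp2 per length, at 7.79 ± 1.51 against 1.78 ± 0.106 FPKM (a level scaled by gene length and library), and in stimulated libraries Mmp2 was above Mmp9, at 3.21 ± 0.0547 against 0.303 ± 0.297 FPKM (SD, n = 3).

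Mmp14, the membrane-type enzyme that activates Mmp2 at the cell surface together with Timp2, fell less. It lies at chr14:54668878-54682821 on the plus strand. It was at 127, 133 and 135 CPM in control and at 77.0, 70.8 and 80.4 CPM in stimulated libraries. The groups did not overlap, and the log2 fold change was -0.80 (SE 0.08, 95% interval -0.98 to -0.61, edgeR adjusted p = 6.4e-05).

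Mmp19, a soluble enzyme with basement membrane substrates (chr10:128626773-128636695, plus strand), had overlapping values. They were 29.1, 28.5 and 30.1 CPM in control and 31.3, 32.2 and 28.9 CPM in stimulated libraries. The log2 fold change was 0.08 (SE 0.09, 95% interval -0.12 to 0.28, edgeR adjusted p = 0.58), and its sign depends on the scaling. Its interval holds no change beyond 0.28 on the log2 scale in either direction. Mmp19 shares 1084 of its 3541 exonic bases with Tmem198b on the opposite strand, which had 4610 counts against 4199 for Mmp19 over the 6 libraries. The strand setting of the counting is not given in the sources used here, so reads of this pair cannot be told apart.

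**Figure D3:**
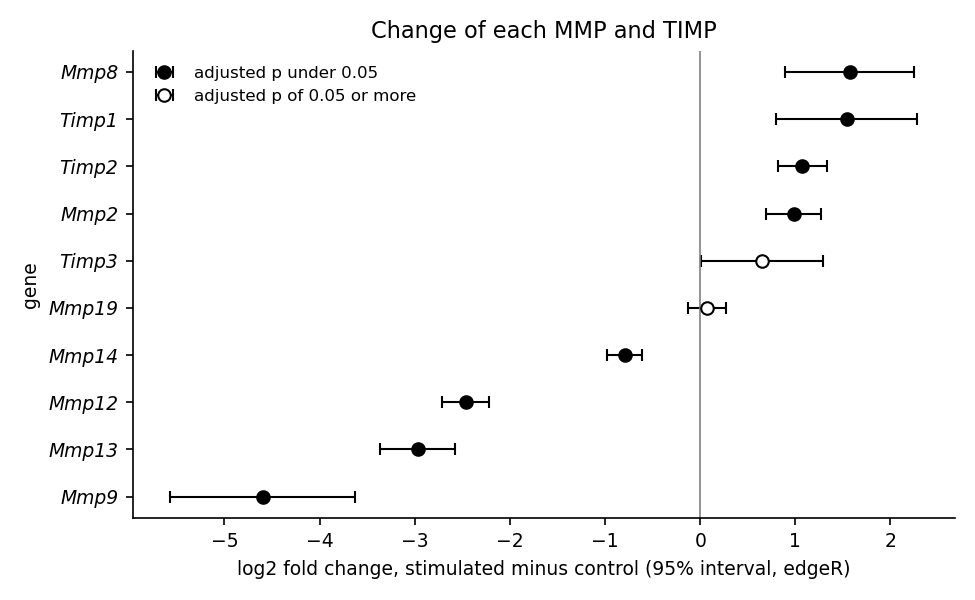
Log2 fold change of each gene, stimulated minus control, with its 95% interval from edgeR; filled points have an adjusted p under 0.05. The 4 lower genes run from -4.60 (Mmp9) to -0.80 (Mmp14), the 4 higher genes from 0.98 (Mmp2) to 1.57 (Mmp8), and the intervals of Mmp9 and Timp1 are among the widest.

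Timp2, which inhibits MMPs broadly and also bridges pro-Mmp2 to Mmp14, was the dominant inhibitor. It lies at chr11:118191887-118246566 on the minus strand. It was at 775, 771 and 824 CPM in control and at 1421, 1851 and 1719 CPM in stimulated libraries. The lowest stimulated value was well above the highest control, at means of 790 ± 29.8 and 1664 ± 220.2 CPM (SD, n = 3). The log2 fold change was 1.07 (SE 0.12, 95% interval 0.81 to 1.33, edgeR adjusted p = 7.8e-05). Timp2 shares 332 exonic bases with Cep295nl on the same strand, which had 322 counts against 168180 for Timp2.

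Timp1, which binds pro-Mmp9, was at 2.97, 2.86 and 3.26 CPM in control and at 4.78, 7.96 and 13.8 CPM in stimulated libraries. The controls were tight, and the stimulated values were all higher but widely spread. The log2 fold change was 1.54 (SE 0.33, 95% interval 0.80 to 2.28, edgeR adjusted p = 0.0058). Timp1 (chrX:20736316-20740976, plus strand) lies within the span of Syn1 on the opposite strand and shares no exonic base with it.

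Timp3, an inhibitor held in the matrix that also blocks several ADAM proteases, was at 5.25, 6.93 and 6.30 CPM in control and at 7.91, 6.30 and 14.9 CPM in stimulated libraries. Only stimulated replicate 3 was far above the controls, and stimulated replicate 2 was inside their range. The log2 fold change was 0.65 (SE 0.29, 95% interval 0.0081 to 1.30), and it missed the threshold at an edgeR adjusted p of 0.12. Timp3 (chr10:86136236-86185371, plus strand) shares 1734 of its 8146 exonic bases with Syn3 on the opposite strand. Syn3 had 233 counts against 1086 for Timp3.

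Stimulated replicate 3 held the highest Timp1, Timp3, Mmp9, Mmp13 and Mmp14 of its group. Mmp2, Mmp8, Mmp12, Mmp19 and Timp2 were highest in stimulated replicate 1 or 2. For Mmp14 the lead was small, at 80.4 CPM against 77.0 CPM in stimulated replicate 1. Stimulated replicate 3 also held the most RNA of fibroblast and mural markers. The summed level of these 11 markers was 168 CPM in that library, 71.6 and 41.0 CPM in stimulated replicates 1 and 2, and 46.0 to 59.9 CPM in control. None of the 11 was at 0 in all libraries, and of the 9 tested 0 passed the edgeR threshold. Col3a1 led with 1488 counts in stimulated replicate 3 and 211 to 573 in the others. Without that library the log2 fold change was 1.07 for Timp1 (edgeR adjusted p = 0.013) and 0.20 for Timp3 (adjusted p = 0.51). Without stimulated replicate 1 or 2, Timp3 passed the threshold, at 0.77 (adjusted p = 0.034) and 0.88 (adjusted p = 0.018). The part of these markers in the Timp1, Timp3, Mmp9, Mmp13 and Mmp14 values was not tested. The 10 microglial markers summed to 10720 to 11980 CPM in control and to 15170 to 20640 CPM in stimulated libraries. Of these 10, 6 were higher and 2 lower (Csf1r, log2 fold change -0.39, and Aif1, -0.45). In every library their sum was above that of any other marker list. The astrocyte markers summed to 23.6 to 38.3 CPM, and those of monocytes and border macrophages to 474 to 1034 CPM.

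On the per-length scale of the deposited FPKM, Mmp12 and Timp2 stood far above the rest in control. Setting genes beside each other on this scale relies on the gene lengths behind FPKM, which are not given. GENCODE M39 has 7237 exonic bases for Mmp12 and 4463 for Timp2, at control means of 843 and 790 CPM. The order of these 2 genes thus depends on the length used. Mmp12 was at 227 ± 22.5 FPKM and Timp2 at 221 ± 0.0828 FPKM (SD, n = 3), and their values overlapped. Then came Mmp14 (35.3 FPKM) and Mmp13 (16.8 FPKM), Mmp19 (8.58 FPKM) and Mmp9 (7.79 FPKM), which overlapped each other, and Timp1 (3.47 FPKM), Mmp2 (1.78 FPKM), Timp3 (1.34 FPKM) and Mmp8 (0.387 FPKM), each clear of the next. In stimulated libraries Timp2 stood alone at 422 ± 41.9 FPKM, followed by Mmp12 at 37.4 ± 2.97 FPKM and Mmp14 at 18.5 ± 1.84 FPKM. Timp1 (9.21 FPKM) and Mmp19 (8.21 FPKM) overlapped, and Mmp2 (3.21 FPKM) was clear of both neighbours. Mmp13 (1.95 FPKM) and Timp3 (1.93 FPKM) overlapped, as did Timp3 and Mmp8 (1.05 FPKM). Mmp9, at 0.303 FPKM, moved from the sixth place to the last.

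**Figure D4:**
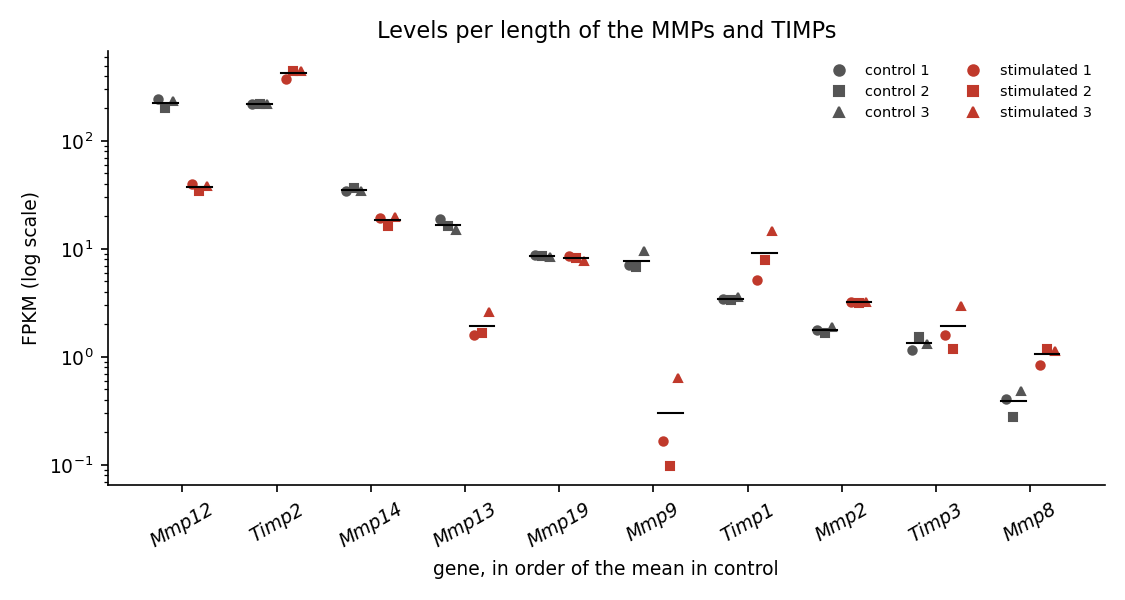
Level per length of the 10 genes in FPKM on a log axis, ordered by the control mean; grey is control, red is stimulated, the symbol marks the replicate and the line is the mean (n = 3). By the deposited FPKM, whose gene lengths are not given, Mmp12 and Timp2 share the top in control, and Timp2 stands alone at the top in the stimulated libraries.

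Summed over the 7 enzymes, MMP RNA was 315, 271 and 306 FPKM in control and 73.6, 64.8 and 73.6 FPKM in stimulated libraries. The 3 TIMPs summed to 226.0, 226.4 and 226.5 FPKM in control and to 381, 459 and 461 FPKM in stimulated libraries. Most of the fall in the sum came from Mmp12, which held 74.2% to 77.2% of MMP RNA in control and 52.2% to 54.0% in stimulated libraries. Without Mmp12, the other enzymes summed to 70.0 to 71.7 FPKM and to 30.7 to 35.2 FPKM. Mmp14 took 11.0% to 13.5% of MMP RNA in control and 25.3% to 26.9% in stimulated libraries. Timp2 held 96.2% to 98.2% of TIMP RNA in all 6 libraries. The ratio of summed MMP to summed TIMP was 1.39, 1.20 and 1.35 in control and 0.193, 0.141 and 0.160 in stimulated libraries. The size of this ratio and the shares above depend on the gene lengths used for FPKM, which are not given.

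Ratios of an enzyme to its inhibitor within a library do not depend on the scaling between libraries, and 5 were computed. Their size depends on the gene lengths used for FPKM, while their log2 change does not. Mmp9 to Timp1 was 2.04, 2.02 and 2.66 in control and 0.0323, 0.0125 and 0.0442 in stimulated libraries, a log2 change of -6.41 (SE 0.56). Mmp12 to Timp2 was 1.10, 0.908 and 1.06 against 0.106, 0.0758 and 0.0866 (-3.52, SE 0.16). In both ratios every stimulated library lay below every control.

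Mmp12 to Timp1 was 70.0, 60.0 and 65.8 in control and 7.71, 4.31 and 2.64 in stimulated libraries (-3.87, SE 0.45). Mmp14 to Timp2 was 0.157, 0.165 and 0.156 against 0.0517, 0.0365 and 0.0446 (-1.86, SE 0.15). These 4 ratios each gave p = 0.1 in the two-sided exact permutation test over libraries, which is the smallest value that 3 against 3 allows, and an adjusted p of 0.125 over the 5 ratios. Each of the 4 sets a gene lower without overlap over a gene higher without overlap. Their p-values were thus fixed by the single-gene results and add no evidence to them. Mmp2 to Timp2 was 0.00810, 0.00753 and 0.00848 in control and 0.00866, 0.00699 and 0.00729 in stimulated libraries. These overlapped, with a log2 change of -0.077 (SE 0.11) and an exact permutation p of 0.5.

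**Figure D5:**
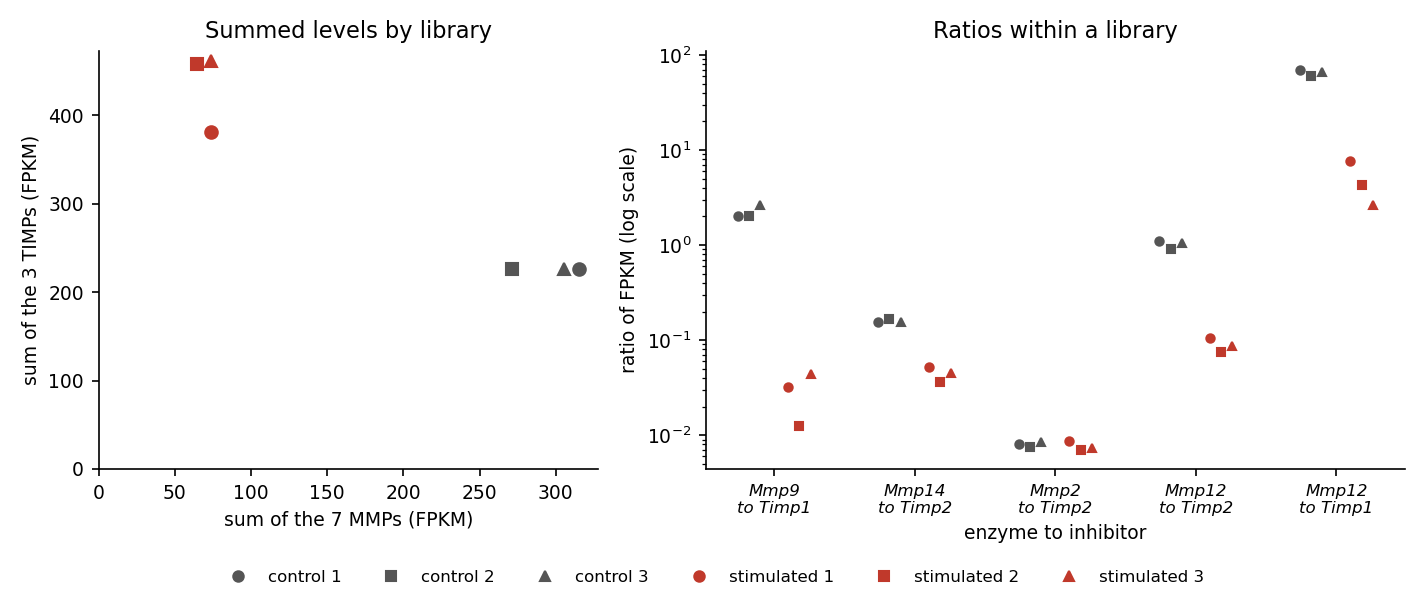
Left, summed FPKM of the 7 MMPs against the 3 TIMPs in each library. Right, 5 enzyme to inhibitor ratios of FPKM on a log axis. Grey is control, red is stimulated and the symbol marks the replicate. The stimulated libraries have lower MMP and higher TIMP sums, 4 ratios are lower in all 3 stimulated libraries, and Mmp2 to Timp2 overlaps.

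By likeness of pattern, the nearest genes to the 3 members that fell at least 2 log2 units were found as the smallest root mean square distance of centred log2 CPM over the 6 libraries, among 10484 genes with a mean of at least 5 CPM. For Mmp12 these were Tnfaip2 (a gene induced by tumour necrosis factor; distance 0.105), Ptafr (the receptor of platelet-activating factor; 0.129) and D17H6S56E-5 (0.131). For Mmp13 they were Chst7 (a carbohydrate sulfotransferase; 0.178), Pira12 (a paired immunoglobulin-like receptor; 0.208) and Clec2d (a C-type lectin; 0.21). For Mmp9 the nearest genes, Slamf8, Iigp1 and Gbp7, were much farther, at 0.70, 0.731 and 0.742. Mmp9 had only 14, 10 and 54 counts in the stimulated libraries, and the part of these few counts in its distances was not tested. With 6 libraries in 2 groups, likeness mostly reflects an alike difference between the groups.

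The other metalloproteinases and inhibitors were mostly scarce. Of 17 such genes, 8 were tested, 1 was lower and 1 higher, near the 29.8% called over all genes, and the median of their log2 fold changes was 0.15. Mmp25, a membrane-anchored enzyme known from leukocytes, had 21, 31 and 22 counts in control against 1, 1 and 3 in stimulated libraries (log2 fold change -3.60, SE 0.54, edgeR adjusted p = 0.00063; -4.32 without stimulated replicate 3). Mmp11 (stromelysin-3) had 22, 22 and 28 against 40, 50 and 42 counts (1.07, SE 0.26, adjusted p = 0.011). Both pairs of groups were apart, at few counts.

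Mmp23, Mmp24, Mmp15 and Mmp28 did not pass the test. Mmp23 had 22, 14 and 27 counts in control against 50, 28 and 27 in stimulated libraries (0.94, SE 0.38, edgeR adjusted p = 0.091). Mmp24 had 163 to 215 and 116 to 236 counts, Mmp15 had 42 to 51 and 30 to 53, and Mmp28 had 6 to 20 and 8 to 22, with log2 fold changes of 0.03, 0.01 and 0.27. Mmp16, Mmp17, Mmp21 and Timp4, the TIMP left out of the 10 genes, had at most 13 counts in any library and were not tested.

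The ADAM and ADAMTS proteases are related metalloproteinases that shed surface proteins or cut proteoglycans, and some are blocked by Timp3. Of 30, 17 were tested, 3 were lower and 6 higher, against 15.2% and 14.7% of all genes (median 0.39). Adam8, the most abundant, was at 1432, 1273 and 1338 CPM in control and at 790, 794 and 863 CPM in stimulated libraries (log2 fold change -0.72, SE 0.10, edgeR adjusted p = 0.00029). Adamts1 (-1.26, SE 0.10) and Adam22 (-1.33, SE 0.29) were also lower. Adam15 (0.67, SE 0.09) and Adam33 (1.29, SE 0.16) were higher. Adamts16 had 0, 0 and 1 counts in control against 22, 38 and 27 in stimulated libraries (edgeR adjusted p = 8.7e-05), and no fold is given against so few counts.

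Activators, other inhibitors and binding partners of MMPs included 26 genes, of which 22 were tested, 1 was lower and 12 higher, against 15.2% and 14.7% of all genes (median 0.69). Serpine2, a serine protease inhibitor, was at 86.8, 99.9 and 88.6 CPM in control and at 472, 650 and 607 CPM in stimulated libraries, a log2 fold change of 2.65 (SE 0.13, edgeR adjusted p = 5e-07). Serpinb2, another serpin, was higher by 1.56 (SE 0.23). Cd63, a tetraspanin that binds Timp1, was higher by 0.70 (SE 0.17, edgeR adjusted p = 0.010), a call lost without control replicate 1 (adjusted p = 0.057) or 2 (adjusted p = 0.055). Lrp1, which clears MMPs and TIMPs from the surface, was higher by 0.67 (SE 0.21, adjusted p = 0.039) with overlapping groups, a call lost in 7 alternatives, among them library size alone (0.56, adjusted p = 0.12). Lcn2, a partner of Mmp9, had 29, 17 and 28 counts in control against 860, 35 and 19 in stimulated libraries, and its call (log2 fold change 3.85, SE 1.27, adjusted p = 0.046) was lost without stimulated replicate 1 (0.29, adjusted p = 0.62).

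Of 25 transcription factors known at MMP promoters, all were tested, 11 were lower and 6 higher, against 15.2% and 14.7% of all genes (median -0.24). Etv4 (2.60, SE 0.30), Runx2 (2.43, SE 0.19), Ets1 (2.05, SE 0.13) and Fosb (1.99, SE 0.30) had the largest log2 fold changes among those called. Etv4, Runx2 and Fosb were scarce, with at most 49 counts in any control library. Ets2 (-1.82, SE 0.09), Nfkb2 (-1.47, SE 0.08) and Relb (-1.13, SE 0.10), outside the naming rule, fell the most. Spi1 (-0.56, SE 0.14) and Nfkb1 (-0.31, SE 0.08) were lower and at the highest levels. The call of Spi1 was lost without control replicate 3 (edgeR adjusted p = 0.054), and that of Nfkb1 without control replicate 1 (adjusted p = 0.055) or stimulated replicate 3 (adjusted p = 0.054). The 7 Fos and Jun genes, named here after their values were seen, went both ways. Fos (-0.97, SE 0.10), Jun (-0.39, SE 0.09) and Jund (-0.54, SE 0.14) were lower, Fosb, Fosl2 (0.40, SE 0.11) and Junb (0.53, SE 0.13) were higher, and Fosl1 (0.18, SE 0.14) did not pass the test.

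Of 24 matrix substrates, 22 were tested, 0 were lower and 5 higher at an edgeR adjusted p under 0.05 (median 0.32). Of all genes tested, 15.2% were lower and 14.7% higher. Fn1 (fibronectin) had the largest change, at 536, 433 and 444 CPM in control and 3799, 2715 and 3483 CPM in stimulated libraries (log2 fold change 2.82, SE 0.15, adjusted p = 8.9e-07). Sparc (1.48, SE 0.13), Tnc (tenascin-C; 1.44, SE 0.26) and Lama5 (a laminin chain; 1.07, SE 0.27) were also higher, and Lama5 lost its call with limma on log2(FPKM + 1) (adjusted p = 0.061). Tnc was highest in stimulated replicate 3, the library with the most fibroblast and mural marker RNA.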

How the data were processed

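RNA-seq of 6 libraries (3 control, 3 stimulated) was used. Per the labels and the study's methods, the authors aligned the paired-end reads with HISAT2 (mm39, which is GRCm39), assigned them to genes with featureCounts, and deposited raw counts per gene and FPKM values; versions, annotation, strand setting and FPKM computation are not given in the sources used here. Each deposited FPKM is proportional to its count through 1 factor per gene and 1 per library. Groups and replicates came from the labels, and columns from the names in the labels.

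edgeR 4.0.16 (R 4.3.3) was run on the counts with filterByExpr, TMM factors and the quasi-likelihood test of stimulated against control, with no covariate. Benjamini-Hochberg adjustment covered all 14618 tested genes, and the threshold was an adjusted p of 0.05. CPM uses TMM-scaled totals. The common dispersion was 0.016, a coefficient of variation of 0.13 between replicates. Intervals were wide for genes with few counts (Mmp8) and for genes whose stimulated replicates were spread (Mmp9 and Timp1). Ratios of FPKM were compared on the log2 scale with a two-sided exact permutation test. Chi-square comparison of same-group libraries found none to be a copy. Steps were tested on simulated counts. Locations are from GENCODE M39, and promoter windows from RefSeq (GRCm38.p6) were matched exactly to GRCm39.

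The members and lists were chosen with earlier results of these data known. Named genes are the 10 members, every gene of the list of other metalloproteinases and inhibitors, and from the 4 other lists the 4 largest log2 fold changes among those called and the 2 highest mean CPM, besides the 3 nearest genes of members past 2 log2 units. 1 named gene is not reported here. Markers of microglia, neutrophils, astrocytes, fibroblasts and mural cells, oligodendrocytes, neurons, endothelial cells, and monocytes and border macrophages were summed as CPM. Alternatives were scaling by library size alone or by relative log expression, the DESeq2 1.42.0 test, no filter, a filter of 10 counts per library, a replicate block, limma 3.58.1 on log2(FPKM + 1) and log2(FPKM + 0.1), the latter also for a mean FPKM of at least 1, and each library left out.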

Additional observations from a re-analysis of the deposited data

How the results depend on the processing

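Of the 10 genes, 4 were lower in every alternative, and 4 were higher except for 3 with limma for a mean FPKM of at least 1, where Mmp8 was below the filter, and 5 without stimulated replicate 1 or 2, where Timp3 passed. Scaling by library size alone moved the median of all genes by -0.129 (log2). The sign of Mmp19 turned with library size alone (-0.053), limma on log2(FPKM + 1) (-0.058) and on log2(FPKM + 0.1) with and without the filter (-0.064 in both). The cause of these changes was not tested.

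With limma for a mean FPKM of at least 1, 2923 of all genes were lower and 1170 higher, 0 other metalloproteinases were lower and 0 higher, and 2 transcription factors were higher. With at least 10 counts in every library 0 other metalloproteinases were lower, and without a filter 2 of them and 8 matrix substrates were higher. Activators and partners lower were 2 with library size alone and with all 3 limma settings. With 1 library left out, activators lower ranged from 1 to 2, matrix substrates lower from 0 to 1 and matrix substrates higher from 5 to 11 (11 without stimulated replicate 2). Cd63 lost its call without control replicate 1 or 2, Spi1 without control replicate 3, Nfkb1 without control replicate 1 or stimulated replicate 3, Lama5 with 2 limma settings, Lrp1 in 7 alternatives and Lcn2 in 8.

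Mmp15 turned sign with library size alone (-0.11), no filter (-0.013), the replicate block (-0.012) and limma (-0.042 and -0.13), and ranged from -0.21 to 0.18 with a library left out. Mmp24 turned with library size alone (-0.12), the replicate block (-0.0050) and limma (-0.091, -0.15 and -0.15), and ranged from -0.27 to 0.20. Mmp28 ranged from -0.10 to 0.57. None of these 3 was called. The added pseudocount shrinks limma's fold changes of genes with low FPKM.

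The groups share replicate numbers, and the deviations of same-numbered libraries correlated at r = 0.243, -0.00964 and 0.178 for replicates 1 to 3. The pair of replicates 2 showed no shared deviation and 4 of the 6 libraries correlated best with their own number, a hint from the data only, so the numbers were not used to pair samples. With the replicate block 4 of the 10 genes were lower and 4 higher. Depth limits Mmp8, Mmp11, Mmp25 and the stimulated values of Mmp9, at no more than 78 counts in any library concerned. With the strand setting unknown, Mmp19 and Timp3 may share reads with overlapping genes, and Timp2 overlaps Cep295nl on its own strand.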

Other observations

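Stimulated replicate 1 was the least like its companions over the whole profile. Chi-square per degree of freedom was 71.3 and 42.3 against stimulated replicates 2 and 3, and 13.4 between replicates 2 and 3. Control pairs gave 10 to 23.8. Without stimulated replicate 1, 2643 of all genes were lower and 2591 higher, against 2218 and 2142 with all libraries. Stimulated replicate 1 also held most counts of a few genes. It had 72 counts of Mmp7 (at most 2 elsewhere) and 860 of Lcn2 (17 to 35 elsewhere). It also had 1534 counts of Ltf (lactotransferrin, on the neutrophil list) and 37 of Rgs5 (a pericyte marker). Any other library had at most 3 counts of Ltf and at most 1 of Rgs5. Eln (elastin, the namesake substrate of Mmp12) had 224 counts in stimulated replicate 3 and at most 13 in any other library. The summed marker levels of oligodendrocytes were 200.4 to 251.4 CPM over all libraries, of neurons 5.13 to 8.13 CPM, of astrocytes 36.4 to 38.3 CPM in control and 23.6 to 27.9 CPM in stimulated libraries (Aldh1l1 alone went from a mean of 16.5 to 4.64 CPM, and the other 7 tested did not pass), and of endothelial cells 78.8 to 94.7 CPM and 271 to 349 CPM, of which Flt1 made up most. Monocyte and border macrophage markers summed to 932 to 1034 CPM in control and 474 to 628 CPM in stimulated libraries, with Mrc1 (log2 fold change -2.40, SE 0.10) and Ms4a7 (-1.04, SE 0.12) lower and F13a1 (1.60, SE 0.12) and Pf4 (0.53, SE 0.17) higher among 5 tested. The part of any of these in the MMP and TIMP values was not tested.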
